A study of Rattus norvegicus with 12 samples.

Results

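The interaction of menthol and Wnt3a was measured in ND7/23 cells as the departure of the combined treatment from the sum of the single ones. All 12 RNA-seq libraries of the series were used as a 2 by 2 design, and 11451 of the 21556 genes listed, those with a mean of at least 0.5 FPKM, were tested. FPKM counts read fragments scaled to the length of the gene and the depth of the library. For each gene the interaction was (menthol with Wnt3a − Wnt3a) − (menthol − control) on log2(FPKM + 0.1). A value of 0 means that the effects of both agents add on the log2 scale. A positive value means a level above that sum, and a negative value a level below it.

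ND7/23 is a line made by fusing rat dorsal root ganglion neurons with mouse neuroblastoma cells. It was kept as control (con) or given 100 μM menthol (M), 100 ng/ml Wnt3a (W) or both at these doses (M_W). All groups are labelled 6 h, with 3 libraries per group. Menthol was stored in DMSO, and whether cells without menthol received DMSO is not given in the sources used here. The study set menthol, an agonist of the cation channel TRPM8, beside Wnt3a to ask by what route TRPM8 acts on Wnt/β-catenin signaling, and the interaction asks whether the menthol response depends on Wnt3a. The labels do not say whether libraries of a group came from separate cultures, so p-values measure only the spread between these libraries. They also do not say whether the cells were differentiated.

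Wnt3a binds Frizzled receptors and the co-receptors LRP5 and LRP6, which stops the destruction complex of Axin, APC and GSK-3β from marking β-catenin for degradation. β-catenin then activates target genes with TCF/LEF factors, among them *Axin2*, a feedback inhibitor of the same pathway. Menthol opens TRPM8, which lets calcium into the cell, and cAMP and protein kinase A can act on GSK-3β from outside the Wnt pathway. When different pathways meet at a shared component, the response to both ligands can be larger or smaller than the sum.

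Reads on genes numbered 36.9 to 38.8 in units of 1e6 per library, and 3 reads on a gene of 1 kb, taken as the floor, correspond to 0.0772 to 0.0813 FPKM. These floors cover counting error only. Of 24 neuronal markers listed in the files, 3 reached the mean FPKM needed for a test, *Uchl1* with a median of 101 FPKM, *Isl1* with 12.8 and *Map2* with 6.73. *Tubb3* had at most 6 reads in any library, *Prph* at most 8 and *Elavl4* at most 1, so these defining neuronal markers were near absent. Of 10 fibroblast markers 6 were tested, with medians from 2.42 FPKM for *Col3a1* to 113 for *Col1a2* and 141 for *Thy1*, and *Dcn*, *Lum*, *Postn* and *Fap* had medians of at most 0.213 FPKM. Reads were aligned to the rat genome, and how mouse transcripts were assigned is not given in the sources used here. *Trpm8* itself had 61 to 97 reads per library, or 0.189 to 0.307 FPKM, and was below the minimum for a test.

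*Axin2* is a known target of Wnt signaling and *Mt1* responded to menthol here, and their promoters are shown with the motifs of the factors best known to act on each. *Mt1* encodes metallothionein, a zinc-binding protein induced through metal response elements. The sequences run from 250 bases before to 50 bases after the RefSeq start, in build GRCr8. Capitals mark CTTTGAT, a TCF/LEF motif, in *Axin2* and TGCNCNC, the core of a metal response element, in *Mt1*, on either strand.
Axin2: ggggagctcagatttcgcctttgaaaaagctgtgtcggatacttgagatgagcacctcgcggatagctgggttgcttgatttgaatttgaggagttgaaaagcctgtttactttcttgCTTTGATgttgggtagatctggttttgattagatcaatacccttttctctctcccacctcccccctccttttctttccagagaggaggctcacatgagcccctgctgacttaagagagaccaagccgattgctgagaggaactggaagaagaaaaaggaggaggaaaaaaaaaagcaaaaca
Mt1: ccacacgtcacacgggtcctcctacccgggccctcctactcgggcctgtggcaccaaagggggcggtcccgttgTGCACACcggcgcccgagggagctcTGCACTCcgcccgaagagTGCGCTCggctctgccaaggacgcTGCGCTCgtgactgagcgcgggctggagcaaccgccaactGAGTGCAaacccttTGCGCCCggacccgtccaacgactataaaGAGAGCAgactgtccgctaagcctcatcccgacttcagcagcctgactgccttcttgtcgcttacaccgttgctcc
The *Axin2* window is chr10:94398535-94398834 on the plus strand and held 1 match, 132 bases before the start, while 3.63% of 33469 promoters held CTTTGAT. The *Mt1* window is chr19:10832926-10833225 on the minus strand and held 7 matches that did not overlap, while 49.6% of all promoters held at least 1 TGCNCNC. These matches describe the letters of the windows and were not tested as binding sites.

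No gene passed the main test for an interaction. Of 11451 genes tested with limma, 0 (0%) had an adjusted p under 0.05, and limma voom on read counts recovered from the FPKM values also gave 0. A fit smoothed on gene length, chosen after seeing the data and described below, called *Fbxo32* and *Pelo*, both at an adjusted p of 0.0482 in limma. In the main fit the lowest adjusted p was 0.0956, for *Fbxo32*. At an unadjusted p under 0.05 there were 800 genes (6.99%), of which 354 (3.09%) were positive and 446 (3.89%) were negative. In 306 of these positive and 406 of these negative genes, both single-agent differences against control had the sign opposite to the interaction. The interaction subtracts both differences, so this arrangement goes with the choice by p. Over all genes, 5779 interactions (50.5%) were positive and 5672 negative, with a median of 0.0013. An interaction of more than 1.5-fold in either direction was estimated for 157 genes (1.37%) and one of more than 2-fold for 29.

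The interactions were small against their own errors. The median absolute interaction was 0.071 on the log2 scale and the median standard error was 0.087. The 95% interval had a median half-width of 0.19, or 1.14-fold. It narrowed with the level of the gene, from 0.49 (1.40-fold) in 1818 genes with a mean of 0.5 to 2 FPKM, through 0.21 (1.15-fold) in 5967 genes at 2 to 20 FPKM, to 0.12 (1.09-fold) in 3666 genes at 20 FPKM or more.

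The single-agent differences, from which the interaction is built, were also small. Measured against control, their median absolute size was 0.053 under menthol and 0.064 under Wnt3a. It was 0.063 for both agents against Wnt3a alone and 0.046 for both against menthol alone, each with a median standard error of 0.061. At an adjusted p under 0.05 in limma, these comparisons in the same order gave 12 (0.105%), 50 (0.437%), 6 (0.0524%) and 11 (0.0961%) genes. Menthol against control and both against Wnt3a have no library in common. Across the 11451 genes, which are not independent replicates, these menthol differences had a Pearson correlation of 0.14 and a Spearman correlation of 0.21. The Wnt3a differences without and with menthol, which also have no library in common, had correlations of 0.11 and 0.18.

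**Figure D1:**
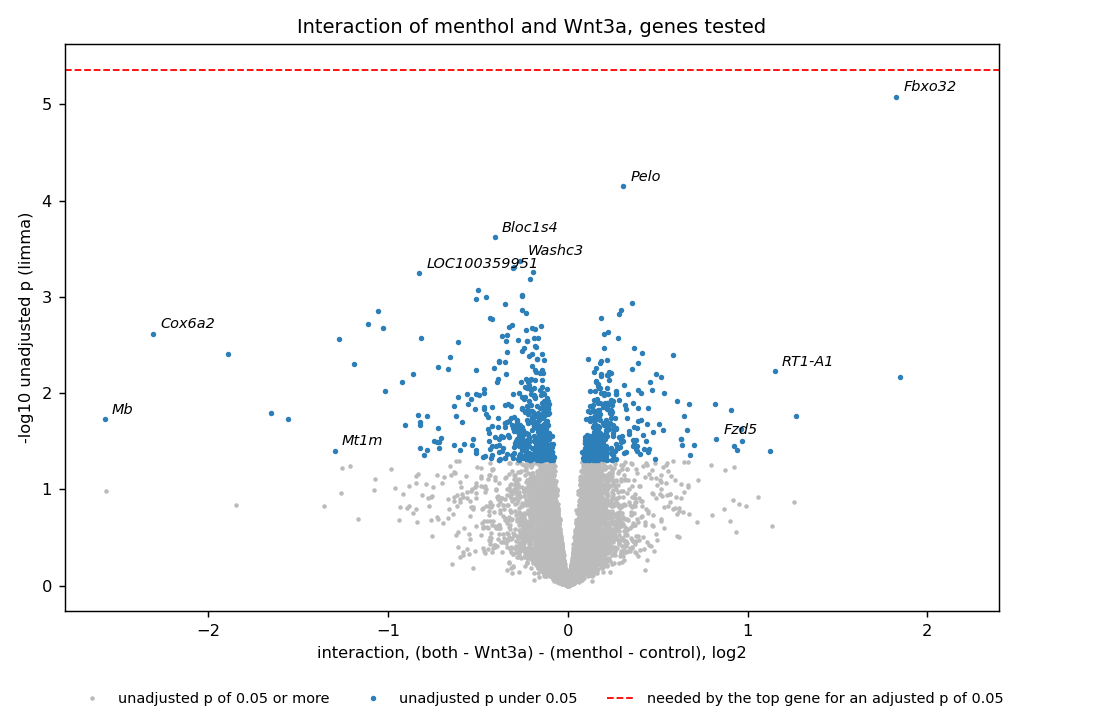
Interaction of each tested gene on the log2 scale (x axis) against −log10 of its unadjusted p from limma (y axis, 11451 points). Blue points are the 800 genes with an unadjusted p under 0.05, and *Fbxo32*, at 1.83, lies closest to the red line that the top gene would have to cross for an adjusted p of 0.05.

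*Fbxo32* encodes atrogin-1, the substrate-binding part of a ubiquitin ligase that is induced by FoxO factors in wasting muscle. Its level was 0.807, 0.873 and 0.934 FPKM in the control libraries, 0.422, 0.373 and 0.370 under menthol, 0.395, 0.386 and 0.324 under Wnt3a and 0.525, 0.905 and 0.824 under both. All libraries given 1 agent lay below every control library and below every library given both, and the first library given both lay between these and the controls. In bulk RNA, fewer cells that express a gene and less RNA per cell cannot be told apart. The gene fell by 1.05 with Wnt3a against control (SE 0.187, adjusted p = 0.0354 in limma). The menthol difference was −0.99, with an adjusted p of 0.0831. If both differences had added, the combined group would have been at 0.135 FPKM, and its geometric mean was 0.734 FPKM.

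The interaction of *Fbxo32* was 1.83 (SE 0.265, 95% interval 1.259 to 2.398, adjusted p = 0.0956 in limma), or 3.55-fold. It missed the threshold. The counts behind it were low, with 106, 47, 44 and 91 reads summed over the control, menthol, Wnt3a and combined groups. From these sums the ratio of ratios was 4.59, with a 95% counting interval of 2.79 to 7.55. That interval covers counting error only, and leaves out the spread between libraries and the choice of the gene by its p. Without the first library given both, the interaction was 2.04 with an adjusted p of 0.0114, and without the third control library its adjusted p was 0.520. The summed level of 21 skeletal muscle markers was 9.68 to 11.8 FPKM in control, 10.5 to 12.6 under menthol, 12.02 to 13.6 under Wnt3a and 10.01 to 13.2 under both. *Tnnt3*, a fast troponin gene, made up most of this sum, with 5.93 to 8.71 FPKM. The part of muscle RNA in the *Fbxo32* values was not tested.

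*Pelo*, which encodes a factor that rescues stalled ribosomes, had the next lowest p. It was at 48.1, 45.9 and 45.1 FPKM in control, 42.9, 45.4 and 42.0 under menthol, 41.4, 43.4 and 40.5 under Wnt3a and 48.4, 47.4 and 49.5 under both. The libraries given both lay above all Wnt3a and all menthol libraries and overlapped the controls. The interaction was 0.31 (SE 0.055, adjusted p = 0.406 in limma), and the additive level would have been 39.1 FPKM against a geometric mean of 48.4. In the RefSeq table *Pelo* lies within *Itga1*, an integrin gene whose own interaction was 0.09 (SE 0.121), and reads of overlapping genes may be shared between them.

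**Figure D2:**
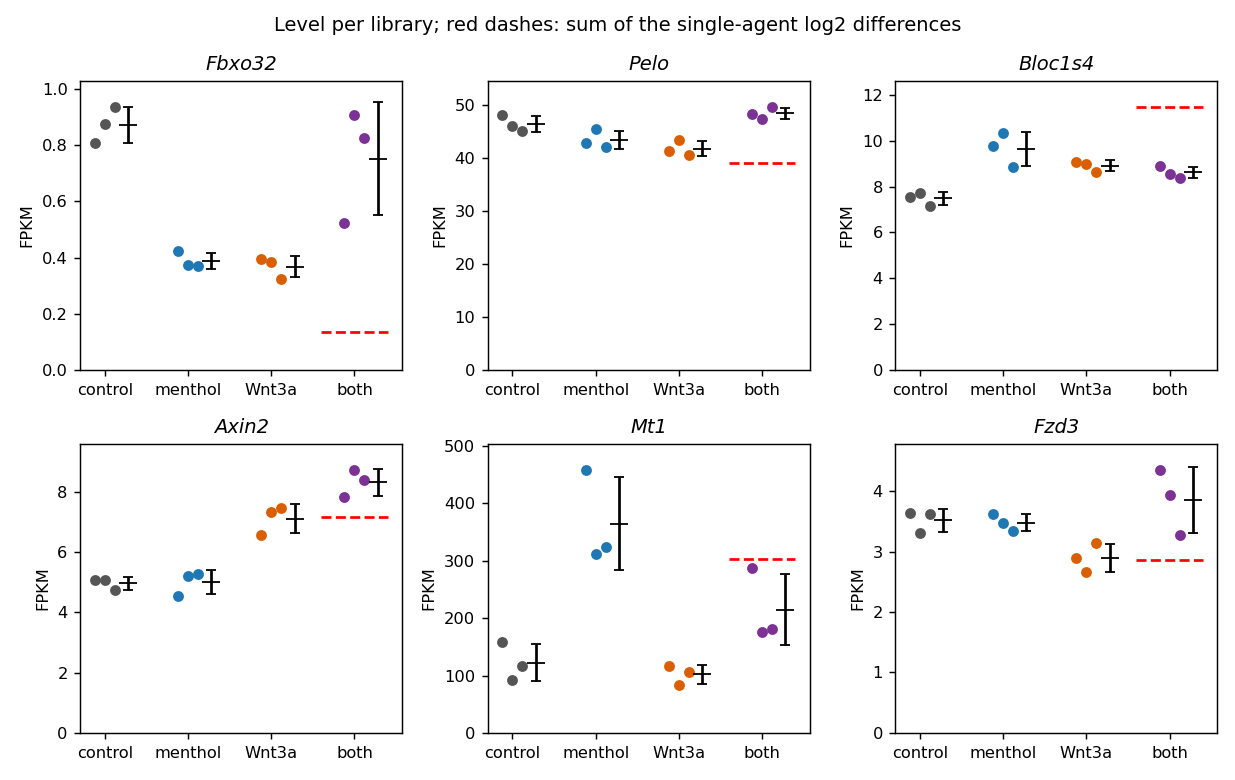
FPKM of 6 genes in each library (points, 3 per group), with the group mean and SD beside them in black. Red dashes mark the level that the combined group would have if the log2 differences of menthol and Wnt3a added: *Fbxo32* and *Pelo* lie above it in all 3 libraries given both, and *Bloc1s4* below it in all 3. These 3 genes were picked for a low p of this same departure, so their place follows from the choice.

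The other 6 of the 8 positive interactions with the lowest p all had an adjusted p of 0.715 and ranged from 0.18 to 0.35. *Fbn1*, the gene of the microfibril protein fibrillin-1, was at 91.8 FPKM on average in control, 83.9 under menthol, 83.2 under Wnt3a and 86.4 under both, with an interaction of 0.18 (SE 0.047). *Lmtk2*, which encodes a membrane-anchored kinase, had an interaction of 0.29 (SE 0.073). *Rpap1* (0.22) encodes an RNA polymerase II-associated protein and *Rnf26* (0.20) a ubiquitin ligase of the endoplasmic reticulum. *LOC100362830* (0.35) is named as a pseudogene of the ribosomal protein *Rps7* in RefSeq, and may share reads with other copies.

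The 8 negative interactions with the lowest p all had an adjusted p of 0.715. *Bloc1s4*, which encodes a subunit of a complex that sorts cargo to lysosome-related organelles, was at 7.56, 7.73 and 7.16 FPKM in control, 9.74, 10.3 and 8.84 under menthol, 9.08, 8.99 and 8.64 under Wnt3a and 8.89, 8.55 and 8.39 under both. Every treated library lay above every control library, and the libraries given both overlapped those of either agent. *Bloc1s4* rose by 0.36 with menthol against control (adjusted p = 0.0340 in limma). Its interaction was −0.41 (SE 0.083), where the additive level would have been 11.4 FPKM and the geometric mean was 8.61.

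*Nt5c3a*, a pyrimidine nucleotidase gene, had mean levels of 10.8, 12.7, 13.05 and 12.3 FPKM in control, menthol, Wnt3a and both, and an interaction of −0.30 (SE 0.066). It rose by 0.26 with Wnt3a against control (adjusted p = 0.0354 in limma). *Washc3*, a subunit of the WASH complex of endosomes, had mean levels of 15.8, 17.02, 17.4 and 15.6 FPKM and an interaction of −0.26 (SE 0.057). In *Washc3* the libraries given both lay below all libraries given 1 agent and overlapped the controls. *Ndufc2* (−0.19) and *Cox7b* (−0.21) encode subunits of respiratory complexes I and IV, and *Grcc10* (−0.30) a short protein of little known function. *LOC100359951* (−0.83), named as a pseudogene of *Rps20* in RefSeq, had 54 to 123 reads per library, and *LOC100911534* (−0.50) is a non-coding RNA that overlaps small nucleolar RNA genes there.

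*Axin2* was at 5.07, 5.07 and 4.72 FPKM in control, 4.55, 5.19 and 5.28 under menthol, 6.56, 7.31 and 7.45 under Wnt3a and 7.83, 8.71 and 8.37 under both. All Wnt3a libraries lay above all libraries without Wnt3a, and all libraries given both lay above the Wnt3a libraries. *Axin2* rose by 0.51 with Wnt3a against control (adjusted p = 0.00875) and by 0.72 with both against menthol (adjusted p = 0.000645 in limma). The interaction was 0.21 (SE 0.102, 95% interval −0.0082 to 0.43, adjusted p = 0.726), so a difference between these responses was not shown.

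The lists of Wnt genes were described by counts and medians, with no test of a list. Of 11 tested Wnt target and feedback genes, 7 were positive and 4 negative, with a median of 0.039 against 0.0013 for all genes. Without the first menthol and the first and second Wnt3a libraries, which leaves 1 Wnt3a library, the median was −0.024 with 5 positive. *Myc* alone had an unadjusted p under 0.05, with an interaction of 0.14 (SE 0.058) and mean levels of 33.4, 33.0, 29.3 and 31.8 FPKM in control, menthol, Wnt3a and both. *Lef1*, a TCF/LEF gene, had 0 to 10 reads per library and was not tested.

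Of 25 tested genes for Wnt receptors, destruction complex and effectors, 22 were positive and 3 negative, with a median of 0.084. Of these, 4 (16%, against 6.99% of all genes) had an unadjusted p under 0.05, all positive. *Fzd3*, a Frizzled receptor, was at 3.63, 3.30 and 3.62 FPKM in control, 3.62, 3.47 and 3.34 under menthol, 2.89, 2.67 and 3.13 under Wnt3a and 4.35, 3.93 and 3.28 under both. Its Wnt3a libraries were lowest and did not overlap the other groups, and the interaction was 0.41 (SE 0.137, adjusted p = 0.715 in limma). *Fzd5* had an interaction of 0.83 (SE 0.341) on 31 to 94 reads per library. The co-receptor *Lrp6* (0.14) and the scaffold *Axin1* (0.11) had smaller values. *Ctnnb1*, the gene of β-catenin, had an interaction of −0.018 with a 95% interval of −0.087 to 0.052, and *Gsk3b* one of 0.073 with an interval of −0.043 to 0.19. The median of these 25 genes was 0.016, with 14 positive, when the first menthol library and the first and second Wnt3a libraries were left out.

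Genes of the menthol side showed no common direction. Of 21 tested cAMP and protein kinase A genes, 12 were positive and 9 negative, with a median of 0.013. *Prkaca*, the catalytic subunit of protein kinase A, had mean levels of 29.0, 28.9, 26.6 and 29.3 FPKM in control, menthol, Wnt3a and both. Its interaction was 0.15 (SE 0.065, 95% interval 0.0097 to 0.29), with an adjusted p of 0.715 in limma. Of 22 genes of calcium entry, stores and calcineurin, 14 were positive and 8 negative, with a median of 0.028 and none at an unadjusted p under 0.05. Among 28 immediate early and CREB target genes the median was 0.021, with 17 positive. *Fosb*, a partner of Jun in the AP-1 factor, was the only one of these at an unadjusted p under 0.05, with an interaction of 0.42 (SE 0.184), and *Fos* had one of −0.32 (SE 0.220). Without the first menthol and the first and second Wnt3a libraries, the medians of the cAMP, calcium and immediate early lists were 0.00052, 0.0023 and 0.00015. After smoothing on gene length, described below, the cAMP list had a median of −0.018, with 9 positive and 12 negative.

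*Mt1* was at 158, 93.1 and 117 FPKM in control, 458, 313 and 324 under menthol, 117, 83.1 and 106 under Wnt3a and 287, 176 and 182 under both. All libraries given menthol lay above all libraries without it, and all libraries given both lay below those given menthol alone. *Mt1* rose by 1.59 with menthol against control (adjusted p = 0.0135 in limma), and the difference of both against Wnt3a was 1.05 (adjusted p = 0.0760). Its interaction was −0.53 (95% interval −1.18 to 0.11, adjusted p = 0.744). *Mt2A*, the other abundant metallothionein, had an interaction of −0.40 (SE 0.239) with mean levels of 672.5, 1288, 625 and 921 FPKM. *Mt1m* (−1.30, SE 0.571), which RefSeq lists as a pseudogene and which may share reads with *Mt1*, had 21 to 106 reads per library. Over the 15 tested metallothionein and zinc transport genes, 8 were positive and 7 negative, with a median of 0.0017.

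Genes of the cell surface and matrix had mostly positive values. Of 25 tested collagens, laminins and integrins, 24 were positive and 1 negative, with a median of 0.086, and 5 (20%, against 6.99% of all genes) had an unadjusted p under 0.05. Without the first menthol and the first and second Wnt3a libraries the median was 0.029, with 16 of 25 positive. The medians of the same genes were −0.089 under menthol and −0.083 under Wnt3a, each against control, and 0.012 for both agents against Wnt3a. *Col1a1*, a chain of type I collagen, was at 7.83, 7.42 and 7.14 FPKM in control, 5.91, 6.31 and 5.93 under menthol, 6.41, 6.77 and 7.38 under Wnt3a and 6.54, 6.88 and 6.33 under both. Its menthol libraries lay below all others, and the Wnt3a libraries overlapped both the controls and the combined group, which lay below the controls. The adjusted p of the menthol difference was 0.126 in limma, and the interaction was 0.24 (SE 0.089, adjusted p = 0.715 in limma). The integrin genes *Itga7* and *Itga3* both had an interaction of 0.11, *Itga7* fell by 0.12 with Wnt3a against control (adjusted p = 0.0499 in limma), and the laminin gene *Lama5* one of 0.17.

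Of 23 tested genes that respond to YAP, SRF or TGF-β, 15 were positive and 8 negative, with a median of 0.065. *Thbs1*, the gene of the matrix protein thrombospondin 1, was at 819, 771 and 771 FPKM in control, 711, 700 and 689 under menthol, 616, 571 and 594 under Wnt3a and 588, 613 and 569 under both. It fell by 0.41 with Wnt3a against control (adjusted p = 0.000293) and by 0.25 with both against menthol (adjusted p = 0.0199 in limma). The libraries given both lay within 569 to 613 FPKM, over the range of the Wnt3a libraries, and the interaction was 0.16 (SE 0.051, adjusted p = 0.715). In all, 5 of the 23 (21.7%, against 6.99% of all genes) had an unadjusted p under 0.05, 4 positive and 1 negative. The positive ones included *Srf* (0.16), *Ccn2* (0.21) and the receptor kinase gene *Axl* (0.10).

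Among the other signaling lists, all 5 tested Hedgehog genes and 7 of 8 tested Notch genes were positive, with medians of 0.082 and 0.11. Without the first menthol and the first and second Wnt3a libraries, 3 of 5 and 6 of 8 were positive, with medians of 0.016 and 0.036. The median difference of the Hedgehog genes from the control mean was −0.19 and −0.10 in the first and second Wnt3a libraries and 0.0087 in the third. *Gli3*, a Hedgehog transcription factor, had mean levels of 16.5, 16.0, 13.2 and 14.5 FPKM in control, menthol, Wnt3a and both, and an interaction of 0.18 (SE 0.081). It fell by 0.32 with Wnt3a against control (adjusted p = 0.0354 in limma). *Notch2* had an interaction of 0.19 (SE 0.083). Of 8 BMP response and Id genes, 4 were positive and 4 negative. The 15 tested FoxO target genes, which include *Fbxo32*, divided into 8 positive and 7 negative with a median of 0.033, which was −0.027 without those 3 libraries, and *Bnip3*, a mitophagy receptor gene, was the other one at an unadjusted p under 0.05 (−0.11, SE 0.039).

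Of 23 sterol genes 13 were positive, with a median of 0.025, and 4 (17.4%, against 6.99% of all genes) had an unadjusted p under 0.05, all positive, among them *Mvk* (0.16) and *Lss* (0.092) of the synthesis pathway and the regulator *Srebf2* (0.13). Without the first menthol and the first and second Wnt3a libraries, 21 of the 23 were positive, with a median of 0.042 and 0 at that threshold. Of 17 NRF2 genes, 4 (23.5%) passed it, where *Nqo1* (0.18) and *Abcc1* (0.19) were positive and *Pir* (−0.27) and *Prdx1* (−0.10) negative. Of 19 heat shock chaperones, 12 were negative, among them *Chordc1* (−0.17) and *Hsp90aa1* (−0.082). The 22 integrated stress response genes had 11 of each sign with a median of 0.011, and a menthol difference with a median of 0.12 without and 0.10 with Wnt3a. After smoothing on gene length, described below, 16 of them were positive and 6 negative, with a median interaction of 0.046. The medians of 26 hypoxia and glycolysis genes, where *Hk2* had 0.17, and of 32 cell cycle genes, where *Birc5* had −0.17, were −0.0020 and −0.024, and 0.015 and 0.0077 without those 3 libraries.

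**Figure D3:**
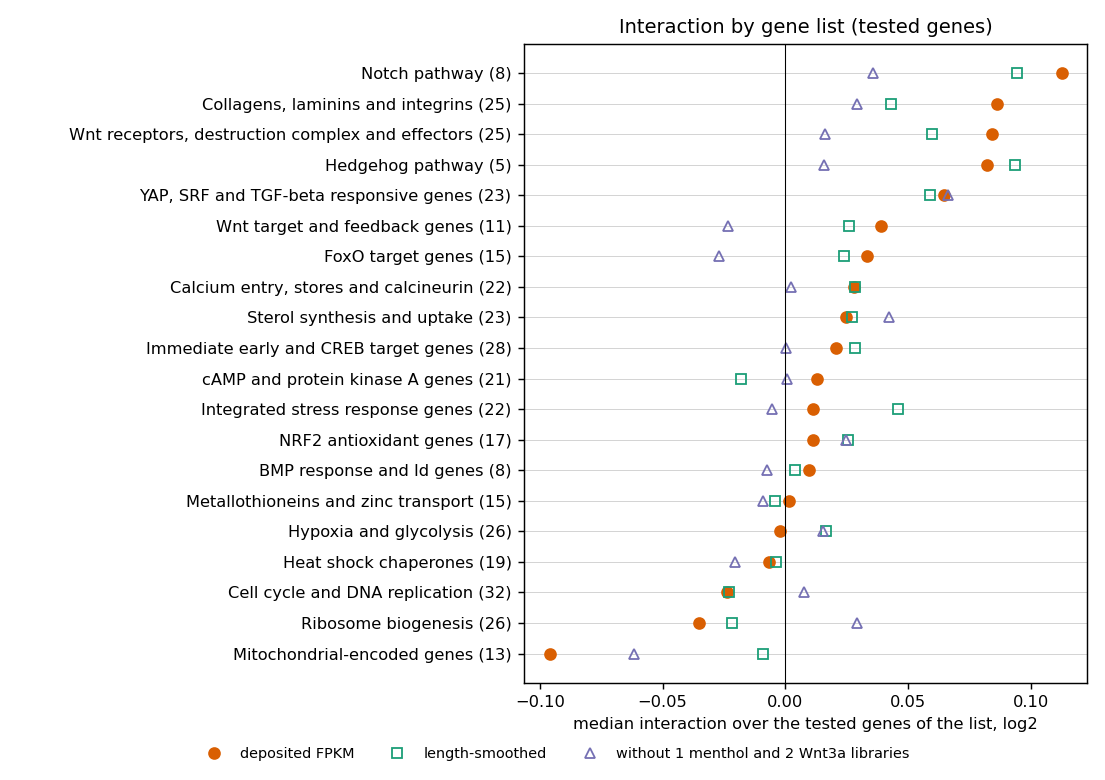
Median interaction (log2, x axis) over the tested genes of 20 lists, with the number of tested genes in brackets. Filled circles are the deposited FPKM, open squares the values after smoothing on gene length, and open triangles a fit without the first menthol and the first and second Wnt3a libraries: the median of the mitochondrial-encoded genes was −0.096, −0.0092 and −0.062 in that order.

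Among 291 KEGG pathways with at least 15 tested genes, Ribosome had the lowest median, −0.093, with 20 positive and 139 negative of 159 genes. Of these, 35 (22.0%, against 6.99% of all genes) had an unadjusted p under 0.05, 34 of them negative. Oxidative phosphorylation followed with a median of −0.088, 12 positive and 112 negative of 124 genes and 28 (22.6%) at that threshold, all negative. All 13 tested mitochondrial-encoded genes were negative, with a median of −0.096. Of these, *COX3*, a subunit of complex IV, was at 6555, 7006, 6873 and 6638 FPKM on average in control, menthol, Wnt3a and both. Cardiac muscle contraction (−0.082) and the coronavirus disease pathway (−0.079) came next.

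At the other end stood Retinol metabolism (0.085, 17 genes), Basal cell carcinoma (0.082, 37 genes), ECM-receptor interaction (0.075, 34 positive and 7 negative) and Hippo signaling in multiple species (0.070, 21 genes). The KEGG pathway of Wnt signaling had a median of 0.040 with 65 positive and 34 negative genes, Hippo signaling 0.045 with 80 and 24, and cAMP signaling −0.0033 with 45 and 47. Calcium signaling had 0.022 with 52 and 32, MAPK signaling 0.033, FoxO signaling 0.033, TGF-β signaling 0.026, Hedgehog signaling 0.048, Focal adhesion 0.046 and Axon guidance 0.055. Protein processing in the endoplasmic reticulum (0.0079), Steroid biosynthesis (0.011), Cell cycle (−0.0014) and Mineral absorption (−0.032) were nearer to 0 or below it. Without the first menthol and the first and second Wnt3a libraries, MAPK signaling had 0.011, FoxO signaling −0.0055, TGF-β signaling 0.0092 and Hedgehog signaling 0.0066. In that fit Focal adhesion had 0.0089, Axon guidance 0.0058 and Hippo signaling 0.019. Retinol metabolism then had 0.042, Basal cell carcinoma 0.030, ECM-receptor interaction 0.029 and Hippo signaling in multiple species 0.050.

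The sign of the interaction moved with gene length. When the tested genes were divided into 6 classes by length, the median interaction went in order from −0.072 in the shortest (0.168 to 1.45 kb) through −0.027, −0.0046, 0.011 and 0.030 to 0.055 in the longest (6.49 to 63.5 kb). In the shortest class 27.2% of the genes were positive, with 23 positive and 236 negative at an unadjusted p under 0.05. In the longest class 71.1% were positive, with 102 and 4. The Ribosome genes had a median length of 0.719 kb, the Oxidative phosphorylation genes 0.927 kb, and the collagens, laminins and integrins 5.22 kb.

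The gap between short and long genes differed between libraries of a group. The median difference from the control mean in the shortest class minus that in the longest was 0.00097, −0.0057 and 0.0064 in the control libraries, 0.097, 0.018 and 0.0095 under menthol, 0.13, 0.20 and 0.026 under Wnt3a and 0.081, 0.0092 and 0.00010 under both. The first menthol library, the first and second Wnt3a libraries and the first library given both stood apart. Their group means of 0.00057, 0.042, 0.12 and 0.030 combine to −0.13, the same sign as the interaction of short genes. Reads on genes shorter than 1 kb made up 8.70 to 9.61% of a library. Smoothing on length was used to see how values change when shifts that run with length are taken out.

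**Figure D4:**
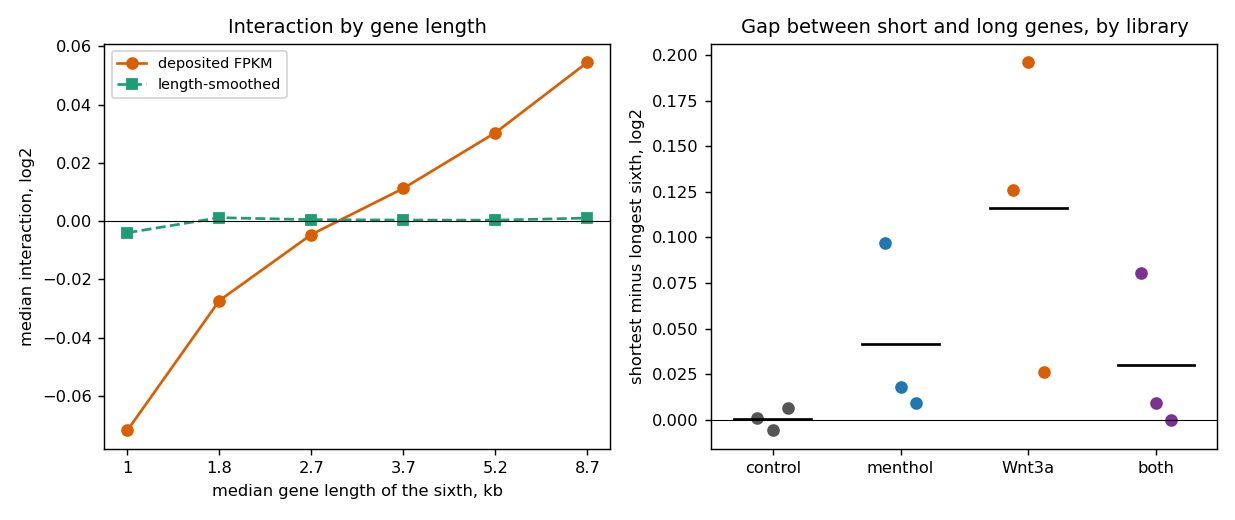
Left, median interaction (log2) in 6 classes of gene length, from the deposited FPKM (circles) and after smoothing on length within each library (squares), against the median length of the class in kb. Right, the gap between the shortest and longest class in each library (points) with group means (lines): 2 Wnt3a libraries lie at 0.13 and 0.20.

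When a smooth curve on gene length was taken out of each library, the lists that had gathered at the negative end moved close to 0. These lists hold mostly short genes, so this move largely follows from the smoothing itself. Smoothing would take out a response of short genes as well as a technical gap, and these cannot be told apart here. The median of the Ribosome genes became −0.0085, with 68 positive and 91 negative, and 5 of 159 at an unadjusted p under 0.05. That of Oxidative phosphorylation became −0.014, with 40 positive and 84 negative. Of its 124 genes, 11 were under that threshold, 9 of them negative, against 617 of all 11451 genes. Of the lists with positive medians, Wnt receptors and effectors had 0.060 with 19 of 25 positive, collagens, laminins and integrins 0.043 with 21 of 25, and YAP, SRF and TGF-β responsive genes 0.059. Of the 800 genes at an unadjusted p under 0.05, 474 (59.3%) stayed under it, within 617 genes in all, 343 positive and 274 negative. In this fit *Fbxo32* (1.89) and *Pelo* (0.35) both had an adjusted p of 0.0482 in limma. With the first menthol and the first and second Wnt3a libraries left out, the medians were −0.011 for Ribosome and −0.026 for Oxidative phosphorylation. In that fit they were 0.016 for Wnt receptors and effectors, 0.029 for collagens, laminins and integrins and 0.066 for YAP, SRF and TGF-β responsive genes. The Wnt3a group then rests on 1 library, and the first library given both, which also stood apart, was kept.

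**Figure D5:**
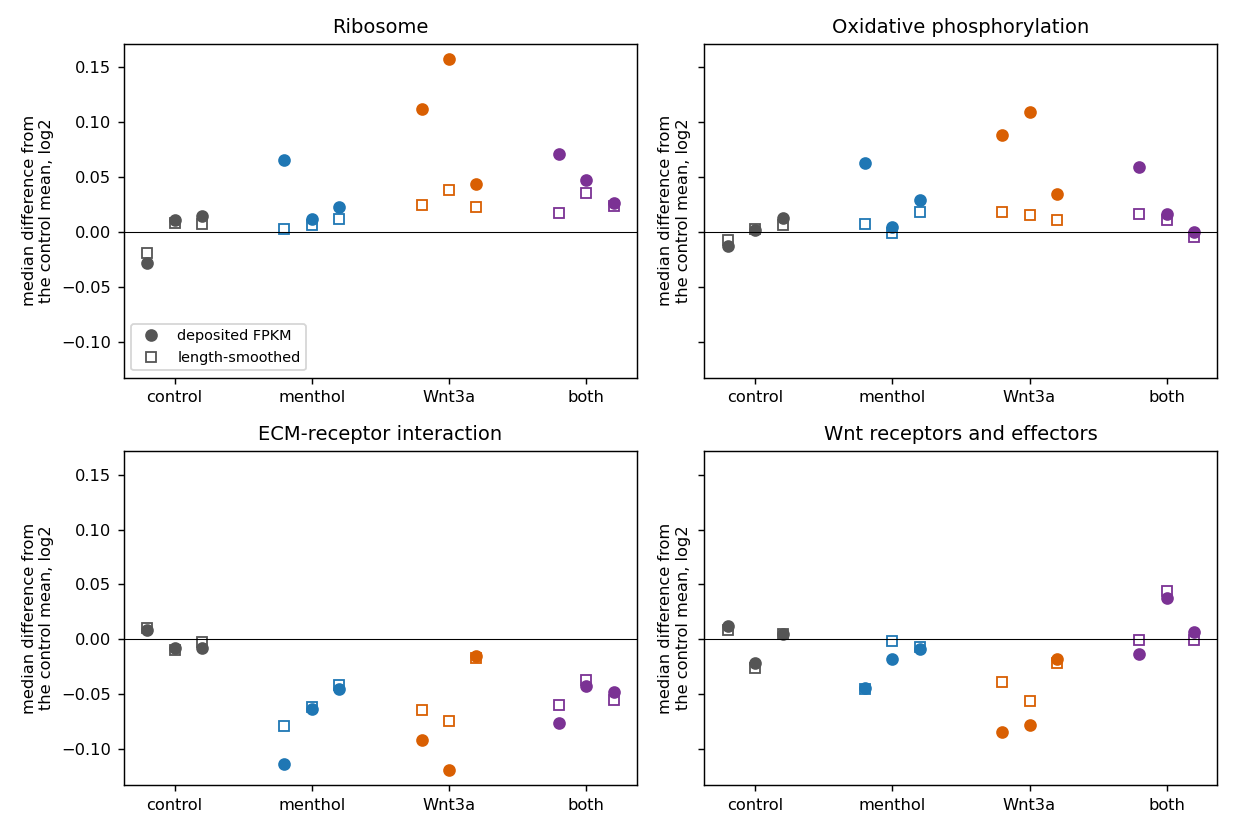
Median log2 difference from the control mean in each library (3 per group) for 4 gene sets, from the deposited FPKM (filled circles) and after smoothing on gene length (open squares). The Ribosome genes lay at 0.11, 0.16 and 0.044 in the Wnt3a libraries as deposited and at 0.025, 0.039 and 0.023 after smoothing.

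Among genes at low levels, 3 of striated muscle had large negative values. *Mb*, the gene of myoglobin, had 20, 12 and 3 reads in control, 74, 29 and 38 under menthol, 65, 28 and 13 under Wnt3a and 18, 3 and 49 under both. The menthol libraries lay above the controls, and the Wnt3a and combined libraries overlapped both, and the interaction was −2.58 (SE 0.966, adjusted p = 0.715 in limma). *Cox6a2*, a muscle form of a complex IV subunit, had an interaction of −2.31 (SE 0.622) on 2 to 25 reads per library, and *Myl2*, a myosin light chain gene, one of −1.65 (SE 0.600). *Cox6a2* and *Myl2* were chosen after their values were seen. Of the 21 muscle markers listed, 4 were tested, *Mb* among them, with 1 positive and 3 negative. Their median was −0.12 and the highest value 0.081. *Myh2*, *Myl1* and *Pvalb* had at most 2 reads in any library. Of 7 erythroid markers listed, 0 were tested.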

How the data were processed

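Libraries were made from total RNA with the VAHTS Universal V6 kit. The authors cleaned reads in fastp, used HISAT for alignment and HTSeq for gene-level counting, and deposited FPKM values in 1 column per library. The submitters' processing notes name build mRatBN7.2 and R 3.2.0. The authors' own differential test was DESeq2 on counts. All 12 columns were matched to the sample labels, and 0 columns were left unused.

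Here limma 3.58.1 in R 4.3.3 was fitted to log2(FPKM + 0.1) for genes with a mean of at least 0.5 FPKM over the 12 libraries, with all 4 groups in 1 fit, a variance trend and no replicate block. p-values were adjusted by Benjamini-Hochberg over all tested genes, and an adjusted p under 0.05 was called. FPKM is not a count, so no count model was the main test. Whole read counts were recovered from the FPKM steps for 21556 of 21556 genes and served for depth and for limma voom as an alternative. Fold changes on log2(FPKM + 0.1) understate those of low genes. Replicate numbers were not used to pair libraries, and the labels do not say whether they mark pairs.

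Named genes were the 8 with the lowest p in each direction, 10 fixed genes, and up to 4 members per list with an unadjusted p under 0.05. *Itga1*, *Cox6a2*, *Myl2*, *Sumo4* and *RT1-A1* were picked once values were known. Members and lists were chosen with earlier results of these data known. Smoothing on gene length subtracted a lowess curve (span 0.3) in each library. Of 61 named genes, 24 overlap another gene in RefSeq (GRCr8), where strand use in counting is not given in the sources used here. Some genes that the rule names are not reported here.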

Additional observations from a re-analysis of the deposited data

How the results depend on the processing

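The count of 0 called genes stayed at 0 with other pseudocounts (0.01 and 1), a mean of at least 1 FPKM, centred libraries, additivity on the linear scale, limma voom, no variance trend, a 2-fold minimum and smoothing with the block. It was 1 with no FPKM minimum (*LOC102548655*, with 1 read in each control and 0 elsewhere, under the floor), 2 after smoothing on gene length, and 800 at an unadjusted p. Leaving out 1 library gave 0 to 1: *Fbxo32* without the first combined library, and *RT1-A1* (1.56, adjusted p = 0.0160 in limma) without the first control, which had 1524 reads against 3522 and 3524. With the replicate number as a block the count was 0, and no named gene changed its call. Libraries with the same number had correlations of −0.055 to 0.15 over 18 pairs, with a median of 0.013 against −0.0065 over 36 other pairs. The highest, 0.15, 0.085 and 0.072, joined the first menthol, Wnt3a and combined libraries, which also had a wide gap between short and long genes. A pair with unlike numbers reached 0.11. Whether the numbers mark shared handling was not tested. Smoothing on length, smoothing with the block, and the fit without the first menthol and the first and second Wnt3a libraries (M_1, W_1 and W_2) were chosen after seeing the data. The last leaves 1 Wnt3a library, assumed to vary like the other groups, so its counts, 0 called genes included, say nothing about stability.

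For genes at an unadjusted p under 0.05, positive values numbered 354. They became 199 without M_1, W_1 and W_2, 343 after smoothing, 413 with smoothing and the block, 417 with the block, 507 with voom and 600 with no minimum. For genes at an unadjusted p under 0.05, negative values went from 446 to 261, 274, 335, 512, 373 and 588 in that order. Leaving out 1 library gave 241 to 642 positive, the highest without the third Wnt3a library, and 326 to 649 negative.

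The 5 KEGG medians below moved by more than the spread between libraries without M_1, W_1 and W_2 and after smoothing, where the block made no difference, and all but that of Oxidative phosphorylation also did without some single library. In these fits they were −0.022 and −0.016 for cAMP, −0.011 and 0.0021 for calcium, −0.0011 and 0.017 for Wnt, −0.011 and −0.0085 for Ribosome, and −0.026 and −0.014 for Oxidative phosphorylation. Leaving out 1 library gave −0.011 to 0.018 for cAMP, 0.0052 to 0.044 for calcium, 0.022 to 0.052 for Wnt, −0.13 to −0.071 for Ribosome and −0.12 to −0.067 for Oxidative phosphorylation. The cause of these moves was not tested.

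Of 1413 values of 59 named genes under the alternatives, 1410 kept sign and call, 3 became called (*Fbxo32* in 2, *Pelo* in 1) and 0 changed sign. Most of these genes were named for a low p in the main fit, and the alternatives reuse the same libraries. A kept sign was therefore largely fixed in advance, and a kept call means that the gene stayed not called. The adjusted p of *Fbxo32* ranged from 0.0114 to 0.520, and with a mean of at least 1 FPKM it was not tested. Depth limits genes near 0.5 FPKM, such as *Fbxo32* with 44 reads over the Wnt3a group.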

Other observations

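Other genes with large estimates, picked after values were seen, also missed the threshold at an adjusted p of 0.715 in limma. *RT1-A1*, a class I histocompatibility gene with near-identical family members, was at 20.97, 49.4 and 48.7 FPKM in the control libraries, 21.1, 18.4 and 20.8 under menthol, 29.4, 38.1 and 35.7 under Wnt3a and 33.4, 50.1 and 42.2 under both, with an interaction of 1.15. The first control library lay among the menthol libraries. *Sumo4* had an interaction of −1.27 on 16 to 47 reads per library.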
